A study of Zea mays subsp. mays x Zea mays subsp. mexicana with 20 samples.

Results

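Of 2157 abundant small RNA loci in maize pollen, 1322 kept their level within a 3-fold range over the 6 libraries of 3 *Dcl2* genotypes. At 1104 of these the mutant libraries also did not all lie on one side of the Dcl2 libraries. These 1104 are called steady loci here. A locus means a genomic interval where sequenced small RNAs accumulated, and the deposited table gave a read count for 85421 of them, so the steady loci made up 1.29% of the table and 51.2% of its abundant loci. The level of a locus is given as CPM, its read count per 1000000 counts of the library. A steady locus had a mean of at least 20 CPM over the 6 libraries, a highest library at most 3 times the lowest, and 4 mutant libraries that lay neither all below nor all above both Dcl2 libraries. The counts themselves therefore chose the loci, and their small spread and mixed order are a description of the choice, not a result.

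The libraries came from pollen of dcl2T, dcl2-mu1 and Dcl2 plants, with 2 libraries of each genotype. Every library label also carries Tpd, from the study's name for biased transmission of teosinte regions through pollen. The labels do not say whether these plants carried the drive regions on other parts of the genome. They also give no background for the dcl2T and Dcl2 plants. The dcl2T plants were homozygous for the *Dcl2* allele of teosinte *mexicana*, a wild relative of maize, and in the dcl2-mu1 plants, of the inbred background W22, both copies carried a *Mu* transposon upstream of the coding sequence. Dcl2 plants carried the functional allele. The study calls both altered alleles hypomorphic, meaning partly functional, so some *Dcl2* activity can remain in the mutants, and it was not measured here. The dcl2T plants can also carry other *mexicana* sequence that came with the allele, so the allele and its neighbourhood cannot be told apart. These 6 libraries were made to find siRNAs that need *Dcl2*, and the question here was which abundant loci stayed at a similar level when the gene was altered. The table names no genes, so the genotypes were not checked on *Dcl2* itself.

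Dicer-like proteins cut double-stranded RNA into short RNAs, and plants have several of them with different work. DCL1 makes microRNAs from short hairpins, DCL3 makes the siRNAs that direct DNA methylation at transposons, and DCL4 and DCL2 cut long hairpins and double-stranded copies made by an RNA-dependent RNA polymerase into siRNAs of different lengths. The products of different Dicers can come from one locus, and DCL4 can take over substrates of DCL2. The deposited counts put all read lengths together, so a steady count gives no information on which Dicer made the reads or on whether the lengths changed. No sequence of a steady locus was available in the sources used here, and none is printed.

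Total counts were 4357765 and 4920576 in the dcl2T libraries, 1950081 and 4083990 in the dcl2-mu1 libraries, and 3966305 and 4392281 in the Dcl2 libraries. At 20 CPM a locus had 39.0 reads in the shallowest library and 98.4 in the deepest. The lowest count of any steady locus in any library was 20 reads, in dcl2-mu1 replicate 1. All 1104 steady loci also passed the filter on low counts used for the tests below, which kept 22558 loci. CPM is a share of a library, so a change in the total amount of small RNA per pollen grain would not be seen in it.

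Steady loci carried about as many reads as all other loci together. They held 49.8% and 51.2% of the counts in the dcl2T libraries and 46.1% and 47.4% in the dcl2-mu1 libraries, against 48.0% and 47.8% in the Dcl2 libraries. The shares averaged 50.5% ± 1.00 in dcl2T, 46.8% ± 0.966 in dcl2-mu1 and 47.9% ± 0.0777 in Dcl2 (SD, n = 2 each). Both dcl2T libraries lay above, and both dcl2-mu1 libraries below, the Dcl2 libraries, by a few percentage points at most. Without Dcl2 replicate 2 the rule chose 599 loci with 27.1% of the counts, and without Dcl2 replicate 1 it chose 813. The other 1053 abundant loci fell into 129 with all 4 mutant libraries below both Dcl2 libraries, 355 with all 4 above, and 569 of mixed order that spread over more than 3-fold.

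The spread of the steady loci filled the allowed range unevenly. The ratio of the highest to the lowest library had a median of 1.92 and quartiles of 1.65 and 2.30, and ran from 1.12 up to the limit of 3. It was at most 1.5 at 114 and at most 2 at 624, which is 56.5% of the steady loci. Mean levels ran from 20.0 to 54464 CPM with a median of 66.7 CPM, against a median of 39.8 CPM at the other abundant loci.

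**Figure D1:**
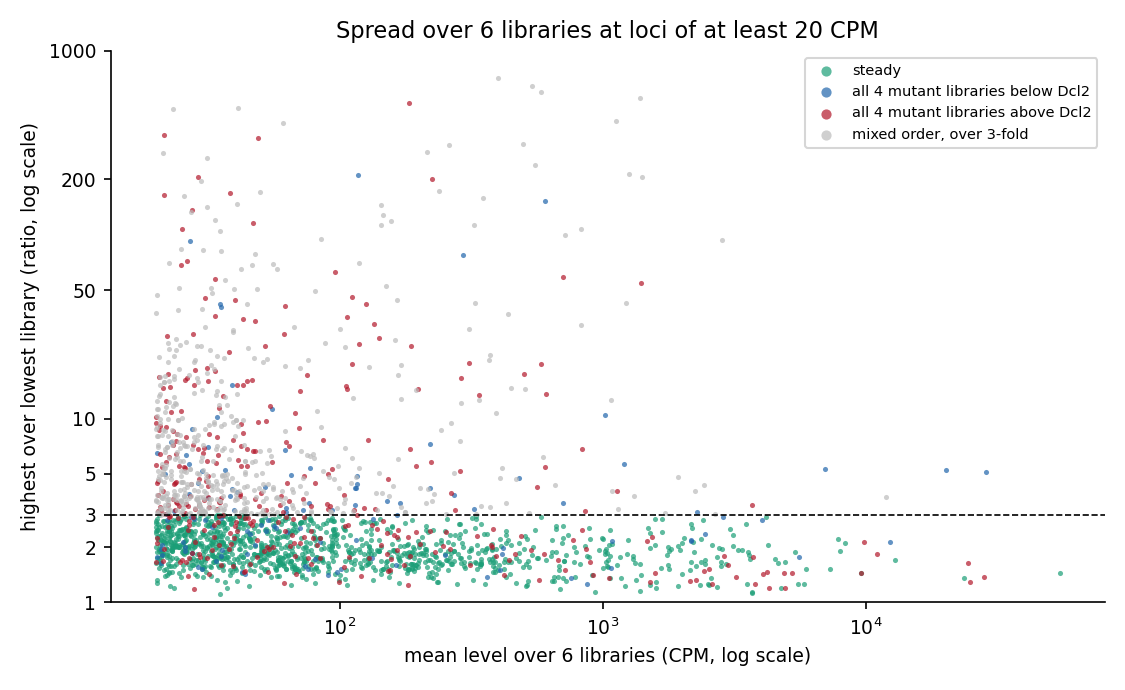
Each point is a locus of at least 20 CPM, with its mean level over 6 libraries in CPM on the horizontal axis and the ratio of its highest to its lowest library on the vertical axis, both on log scales; the dashed line marks the ratio of 3. The plot shows 2064 loci, leaving out 93 with no read in at least 1 library, and steady loci (green) fill the band under the line at all levels, together with loci whose 4 mutant libraries lay all below (blue) or all above (red) both Dcl2 libraries.

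Steady loci were a larger part of the loci above 50 CPM than of those nearer the limit. Between 20 and 50 CPM, 432 of 1061 loci were steady (40.7%). In the classes above, the share was 60.2% between 50 and 100 CPM, 57.9% between 100 and 200 CPM, 65.3% between 200 and 500 CPM, 62.4% between 500 and 1000 CPM and 63.0% from 1000 CPM upwards. Loci of the lowest class also had the fewest reads, and the part of counting error in its lower share was not tested.

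Length was not used by the rule. The median length of the steady loci was 2648 bp (95% interval from order statistics 2514 to 2859 bp), against 2649 bp at the other abundant loci and 790 bp over the whole table. The interval treats loci as independent draws, which they are not, and measures no spread between libraries. The quartiles of the steady loci were 1492 and 4685 bp, with a range from 20 to 28491 bp, and together they covered 3.97 Mb. By length the steady share was 35.2% of loci up to 200 bp (19 of 54), 40.4% between 201 and 500 bp, 54.2% between 2000 and 5000 bp and 43.6% above 10000 bp (48 of 110). Per length, the steady loci had a median of 31.2 CPM per kb, against 20.1 CPM per kb at the other abundant loci. Across the 1104 loci, log2 mean CPM and log2 length had a Pearson r of -0.04, given as a description, since loci share the same libraries and are not independent replicates.

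**Figure D2:**
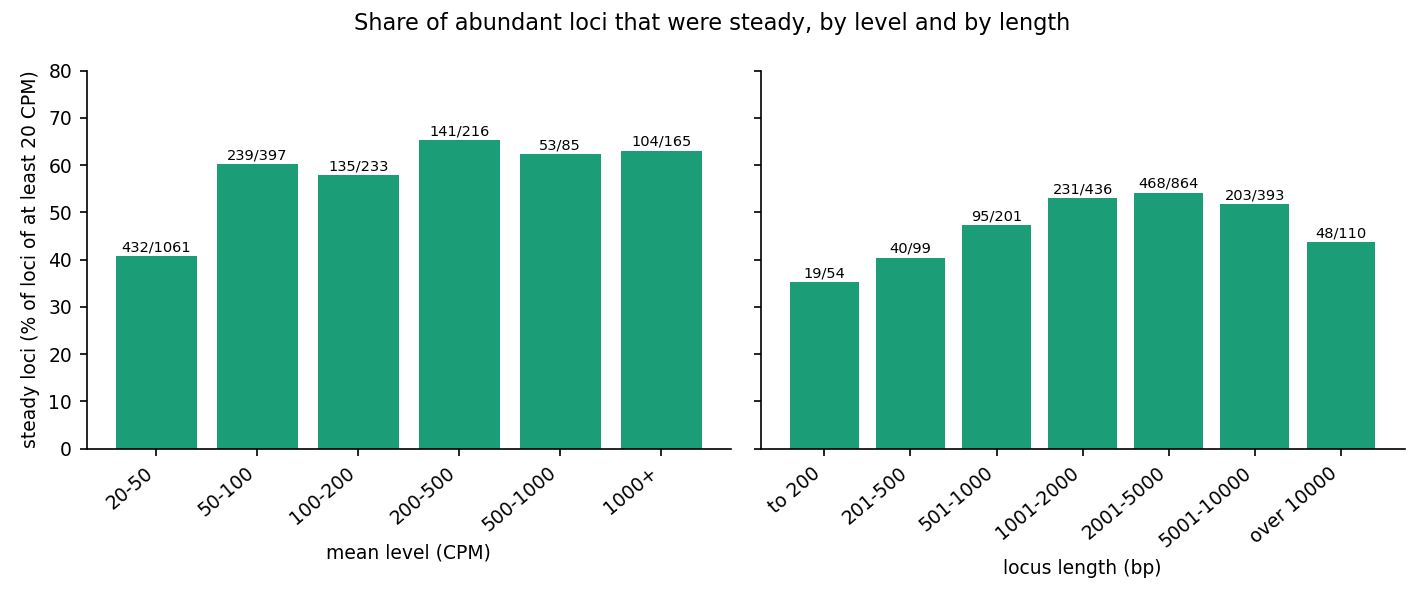
Bars give the percentage of loci of at least 20 CPM that were steady, by mean level in CPM on the left and by locus length in bp on the right, with the number of steady loci over the number of loci above each bar. The lowest level class stands at 40.7% and the higher classes between 57.9% and 65.3%, while by length the share is highest, at 54.2%, between 2000 and 5000 bp.

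A small number of steady loci held most of their reads. The most abundant held 5.45% of all counts in the mean library, the first 10 held 14.4%, the first 50 held 27.4% and the first 100 held 35.0%. The 37 most abundant had as many reads, 24.3% of all counts, as the other steady loci had together. The 104 steady loci of at least 1000 CPM accounted for 35.7% of all counts, against 1.34% for the 432 loci between 20 and 50 CPM. Steady loci were 3 of the 10 most abundant in the whole table, and among the 100 most abundant 60 were.

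The most abundant locus of the whole table was steady. This was Cluster_25109 (chr3:62552652-62561691, 9040 bp), named by its number in the deposited table as all loci are here. It had 48556 and 48319 CPM in dcl2T and 68965 and 63611 CPM in dcl2-mu1, against 49326 and 48005 CPM in Dcl2. Both dcl2-mu1 libraries stood above the other 4, which lay close together. Cluster_84598 (chr10:144371858-144374883) had 28388 and 24338 CPM in dcl2T and 24344 and 21751 CPM in dcl2-mu1, against 20931 and 22388 CPM in Dcl2, with both dcl2T libraries above both Dcl2 libraries. Cluster_51751 (chr6:28051761-28052947) had 15874 and 15187 CPM in dcl2T and 9328 and 11601 CPM in dcl2-mu1, against 13715 and 11531 CPM in Dcl2. At this locus dcl2T was the highest genotype, and dcl2-mu1 and Dcl2 overlapped.

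Cluster_42262 (chr5:5217505-5225946) and Cluster_2857 (chr1:63598248-63599772) were highest, on average, in dcl2-mu1. Cluster_42262 had 9034 and 8573 CPM in dcl2T and 12371 and 10414 CPM in dcl2-mu1, against 8826 and 8509 CPM in Dcl2. Cluster_2857 had 5370 and 4678 CPM in dcl2T and 7142 and 6274 CPM in dcl2-mu1, against 5621 and 6386 CPM in Dcl2. At Cluster_42262 both dcl2-mu1 libraries lay above both Dcl2 libraries, while at Cluster_2857 the 2 genotypes overlapped and both dcl2T libraries were the lowest.

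The remaining loci among the 10 most abundant were on average lowest in dcl2-mu1. Cluster_47956 (chr5:160812099-160814463) had 8888 and 9308 CPM in dcl2T and 5893 and 5224 CPM in dcl2-mu1, against 9995 and 8555 CPM in Dcl2. Cluster_47988 (chr5:161541434-161543347) had 8129 and 8758 CPM in dcl2T and 4799 and 6431 CPM in dcl2-mu1, against 10581 and 8388 CPM in Dcl2. Cluster_7183 (chr1:187353923-187356178) had 8546 and 8796 CPM in dcl2T and 5819 and 6023 CPM in dcl2-mu1, against 7966 and 6485 CPM in Dcl2. At these loci both dcl2-mu1 libraries lay below both Dcl2 libraries and dcl2T did not. Cluster_47970 (chr5:161150276-161152842) had 9263 and 8697 CPM in dcl2T and 4880 and 8611 CPM in dcl2-mu1, against 10328 and 8048 CPM in Dcl2, so the low value came from dcl2-mu1 replicate 1 alone.

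Cluster_57375 (chr6:165060235-165060329) was only 95 bp long and had the most CPM per kb of all steady loci, 61065. Its levels were 6029 and 5433 CPM in dcl2T and 5389 and 5679 CPM in dcl2-mu1, against 6755 and 5521 CPM in Dcl2, and all 3 genotypes overlapped. The next most dense steady locus was Cluster_7235 (chr1:188440032-188440052), 21 bp long, at 16893 CPM per kb. It had 235 and 348 CPM in dcl2T and 453 and 296 CPM in dcl2-mu1, against 246 and 551 CPM in Dcl2. Here the replicates of Dcl2 differed more than the genotypes did.

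**Figure D3:**
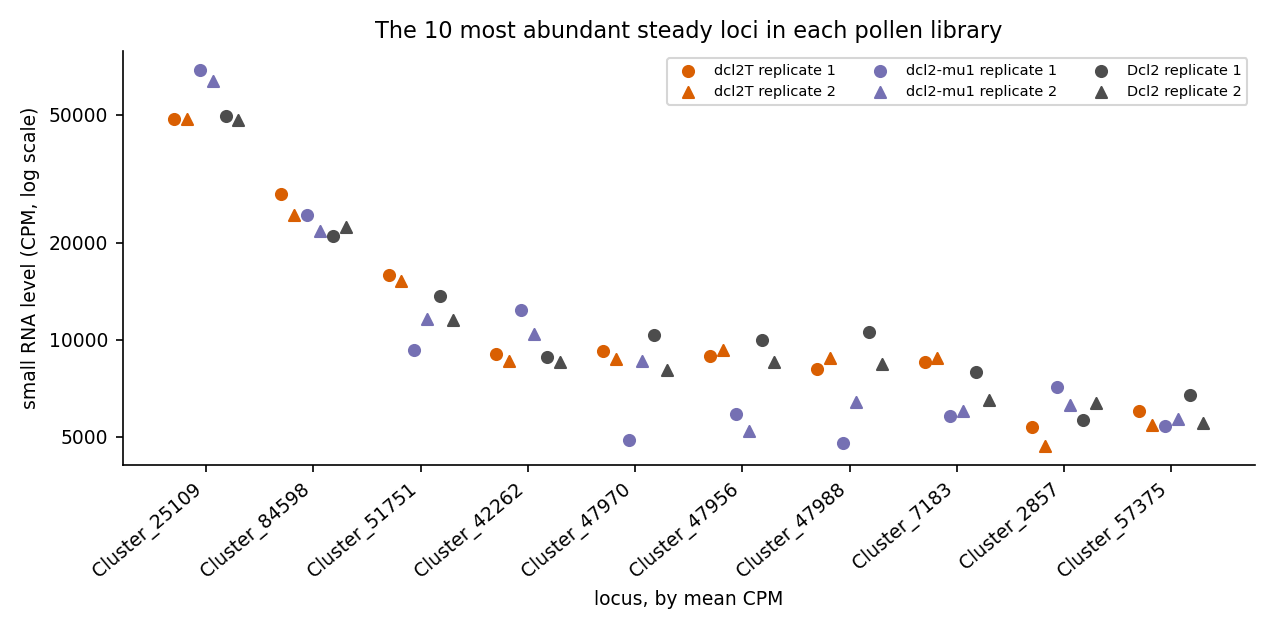
Each column is 1 of the 10 most abundant steady loci in order of mean CPM, with the level in each library in CPM on a log axis; colours stand for dcl2T (orange), dcl2-mu1 (purple) and Dcl2 (grey) and shapes for replicates 1 and 2. The dcl2-mu1 libraries lie above the others at Cluster_25109 and Cluster_42262 and below them at Cluster_47956, Cluster_47988 and Cluster_7183, all within the 3-fold limit.

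The steady loci with the smallest spread differed widely in level. Cluster_68954 (chr8:114516949-114519558) had 3710 and 3589 CPM in dcl2T and 3896 and 3478 CPM in dcl2-mu1, against 3662 and 3825 CPM in Dcl2, a highest over lowest ratio of 1.12. Cluster_22404 (chr2:241157413-241171578) had 3766 and 3567 CPM in dcl2T and 3889 and 3504 CPM in dcl2-mu1, against 3504 and 3987 CPM in Dcl2, a ratio of 1.14. Cluster_58719 (chr7:22729270-22732740) was far less abundant. It had 37.4 and 33.7 CPM in dcl2T and 34.9 and 36.2 CPM in dcl2-mu1, against 33.5 and 35.5 CPM in Dcl2, a ratio of 1.12. In all 3 loci the genotypes overlapped.

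Each chromosome had a most abundant steady locus, and those not yet named stood on chromosomes 4, 7, 8 and 9. Cluster_71070 (chr8:164626894-164634850) had 5109 and 5004 CPM in dcl2T and 6085 and 5636 CPM in dcl2-mu1, against 5022 and 6274 CPM in Dcl2. Cluster_32435 (chr4:6215895-6216368) had 5042 and 5618 CPM in dcl2T and 3690 and 4121 CPM in dcl2-mu1, against 6138 and 5054 CPM in Dcl2. The first of these showed overlapping genotypes against Dcl2, and the second a lower level in both dcl2-mu1 libraries. Cluster_73403 (chr9:25063986-25065929) had 2714 and 2810 CPM in dcl2T and 1820 and 1948 CPM in dcl2-mu1, against 2943 and 2399 CPM in Dcl2, again with dcl2-mu1 lowest. Cluster_63553 (chr7:157230362-157231289), the least abundant of the chromosome leaders, had 887 and 1032 CPM in dcl2T and 1356 and 1188 CPM in dcl2-mu1, against 757 and 1167 CPM in Dcl2, with dcl2-mu1 just above the higher Dcl2 library.

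The extremes of length were also steady at very different densities. The longest, Cluster_15969 (chr2:79882532-79911022, 28491 bp), had 428 and 485 CPM in dcl2T and 454 and 645 CPM in dcl2-mu1, against 413 and 555 CPM in Dcl2, at 17.4 CPM per kb. Cluster_19263 (chr2:175281952-175281971), at 20 bp among the shortest, had 37.2 and 43.3 CPM in dcl2T and 23.1 and 26.9 CPM in dcl2-mu1, against 22.7 and 31.2 CPM in Dcl2, so that dcl2T was highest and dcl2-mu1 lay within the range of Dcl2. Loci of at most 25 bp are about the size of a single small RNA, and 4 of the 9 such abundant loci were steady. The other steady loci among these were Cluster_29857 (chr3:196527300-196527319), also 20 bp long, with a mean of 33.9 CPM, and Cluster_59449 (chr7:43442257-43442277), with a mean of 33.5 CPM. Both were highest in dcl2T, at 40.6 CPM and 41.2 CPM on average, against 31.1 CPM and 30.7 CPM in Dcl2. They were named after their values were seen.

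The limits of the rule cut through a continuous range. Just inside the ratio of 3 stood Cluster_24916 (chr3:57319832-57327695), with 52.8 and 65.0 CPM in dcl2T, 39.5 and 30.4 CPM in dcl2-mu1, and 21.7 and 44.9 CPM in Dcl2. Cluster_52724 (chr6:60164238-60172099) also lay just inside, with 39.0 and 13.01 CPM in dcl2T, 27.7 and 20.8 CPM in dcl2-mu1, and 35.8 and 20.9 CPM in Dcl2. At this locus the highest and the lowest library were replicates of dcl2T, so the full 3-fold range lay within a genotype. Just outside were Cluster_55766 (chr6:133247031-133249499), with 21.6 and 29.3 CPM in dcl2T, 9.74 and 23.5 CPM in dcl2-mu1, and 14.9 and 26.4 CPM in Dcl2, and Cluster_48576 (chr5:176646734-176648846), with 31.9 and 46.9 CPM in dcl2T, 95.9 and 36.5 CPM in dcl2-mu1, and 45.1 and 50.8 CPM in Dcl2. At both, dcl2-mu1 replicate 1 was the library at the edge.

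The limit on the mean also had close neighbours on either side. Cluster_27625 (chr3:144432577-144437646), just inside, had 24.1 and 19.7 CPM in dcl2T and 20.0 and 14.7 CPM in dcl2-mu1, against 20.9 and 20.7 CPM in Dcl2. Cluster_3048 (chr1:68809512-68815449), also inside, had 23.9 and 28.9 CPM in dcl2T and 11.3 and 13.5 CPM in dcl2-mu1, against 21.2 and 21.4 CPM in Dcl2. Just outside, Cluster_11037 (chr1:274318549-274324519) and Cluster_16792 (chr2:106397216-106398293) had means of 19.99 and 19.98 CPM and a ratio of 2.08 each. Cluster_3048 shows that a locus could pass with both dcl2-mu1 libraries well below both Dcl2 libraries, because the dcl2T libraries were not below.

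Some libraries stood at the edge of the range more often than others. Dcl2 replicate 1 was the lowest library at 444 steady loci (40.2%), and its median difference from the locus mean was -0.28 on the log2 scale. At steady loci of at least 500 CPM that median was 0.00, so its low position belonged to the less abundant loci. The library of dcl2-mu1 replicate 1, which had the fewest reads, was the highest at 321 loci and the lowest at 246, together 567 of 1104. Dcl2 replicate 2 was the highest at 287 loci, dcl2T replicate 2 at 189, dcl2-mu1 replicate 2 at 138, dcl2T replicate 1 at 89 and Dcl2 replicate 1 at 80.

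**Figure D4:**
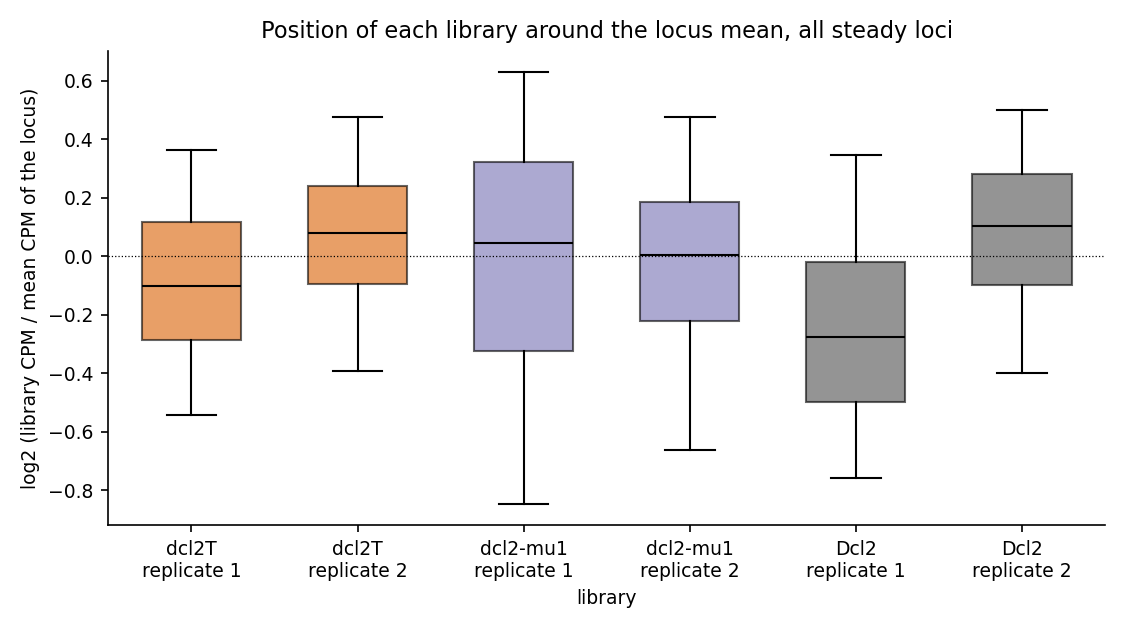
For each library the box gives the median and quartiles, and the whiskers the 5th and 95th percentile, of log2 of the library CPM over the mean CPM of the locus, across 1104 steady loci; the dotted line is the locus mean. Dcl2 replicate 1 sits lowest, with a median of -0.28, and dcl2-mu1 replicate 1 has the widest spread, with quartiles of -0.32 and 0.32.

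Differences between genotype means were of the same size as those between replicates of a genotype. The median fold between the replicates at a steady locus, in either direction, was 1.17 in dcl2T, 1.28 in dcl2-mu1 and 1.38 in Dcl2. The median fold between genotype means was 1.13 for dcl2T against Dcl2, 1.21 for dcl2-mu1 against Dcl2 and 1.27 for dcl2-mu1 against dcl2T. Means lay within 1.5-fold at 1029 loci (93.2%) for dcl2T against Dcl2, at 919 (83.2%) for dcl2-mu1 against Dcl2 and at 852 (77.2%) for dcl2-mu1 against dcl2T. A mean of 2 libraries varies less than a single one, so the folds between means and between replicates are not on an equal footing. The coefficient of variation over the 6 libraries had a median of 23.9%, where counting error alone would give 6.46%, so most of the spread was not counting error.

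Within the 3-fold range 1 genotype could still stand apart from another, at lower shares than over all abundant loci. With only 2 libraries of each genotype, such separation can also arise without a genotype difference, which was not tested. Both dcl2-mu1 libraries lay below both Dcl2 libraries at 156 steady loci (14.1%, against 21.0% of all 2157 abundant loci), with a median ratio of means of 0.672. Both lay above at 173 (15.7%, against 31.1%), with a median ratio of 1.45. For dcl2T against Dcl2 the counts were 85 below (7.70%, against 12.1%) and 205 above (18.6%, against 33.4%). The rule removes loci on both sides from these counts by construction, and the lower shares say nothing more than that. Between the mutants, both dcl2-mu1 libraries lay below both dcl2T libraries at 279 steady loci (25.3%, against 27.7%) and above at 310 (28.1%, against 31.7%). No pair of genotypes stood apart at 368 steady loci (33.3%, against 21.9%). The rule raises this share by construction too, since it drops the loci with all mutant libraries on one side of Dcl2.

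In the edgeR quasi-likelihood test over 22558 loci with Benjamini-Hochberg adjustment, no steady locus was called in any comparison. The limits for a call were 0.01 for the adjusted p and 2 for the size of the log2 fold change, and the rule, through its 3-fold limit, all but prevents such a change. The counts were 0 of 1104 steady loci against 6 calls among all loci (0.0266%) for dcl2T against Dcl2, 0 against 95 (0.421%) for dcl2-mu1 against Dcl2, and 0 against 82 (0.364%) for dcl2-mu1 against dcl2T. DESeq2 also called 0 steady loci in each. At an unadjusted p under 0.05 edgeR had 14 of 1104 steady loci for dcl2T against Dcl2 (4.07% among all loci tested). It had 109 for dcl2-mu1 against Dcl2 (15.5% among all) and 122 for dcl2-mu1 against dcl2T (13.3% among all). At that limit DESeq2 had 17, 159 and 131 steady loci, against 1019, 4117 and 3514 of all 22558 loci. These counts are a description, since the rule used the same contrasts, and a count of 0 here does not show that a locus was unchanged.

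The intervals of the fold changes give what the libraries could resolve. The median standard error of a log2 fold change was 0.39 at steady loci in each comparison, and between 1.45 and 1.54 over all loci tested. The median 95% interval reached 0.87 to either side. It lay wholly within 2-fold at 396 steady loci (35.9%) for dcl2T against Dcl2, at 259 (23.5%) for dcl2-mu1 against Dcl2 and at 283 (25.6%) for dcl2-mu1 against dcl2T. Within 4-fold it lay at 1094 (99.1%), 1057 (95.7%) and 1044 (94.6%) in the same order. A 2-fold difference was therefore within the interval at most steady loci, and a 4-fold difference at few.

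The direction of small changes depended on the scaling. With TMM factors, which assume that most loci do not change, the median log2 fold change of the steady loci was -0.12 for dcl2T against Dcl2, -0.27 for dcl2-mu1 against Dcl2 and -0.15 for dcl2-mu1 against dcl2T. The medians over all loci tested were 0.07, -0.30 and -0.37. With library size alone the steady medians were 0.05, 0.07 and 0.02, and those of all loci 0.25, 0.02 and -0.22. Of the 109 steady loci at an unadjusted p under 0.05 for dcl2-mu1 against Dcl2, 107 were lower with TMM factors. The change of scaling moved the median of the steady loci and that of all loci in the same direction, and the sign of the steady median changed with it in all 3 comparisons.

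Cluster_81452 (chr10:72286346-72288425), singled out after its values were seen, had the lowest adjusted p of any steady locus. It had 3035 and 3156 CPM in dcl2T and 1118 and 1354 CPM in dcl2-mu1, against 3067 and 2637 CPM in Dcl2. The dcl2-mu1 libraries lay far below the other 4, which overlapped. Its log2 fold change for dcl2-mu1 against Dcl2 was -1.56 (SE 0.28, 95% interval -2.20 to -0.92) with an adjusted p of 0.038 by the edgeR quasi-likelihood test with Benjamini-Hochberg adjustment, short of both limits for a call. For dcl2T against Dcl2 it was -0.05 (SE 0.28). At Cluster_47956, among the 10 most abundant, the log2 fold change for dcl2-mu1 against Dcl2 was -1.12 (SE 0.23, 95% interval -1.65 to -0.59), with an adjusted p of 0.062 by the same test. At Cluster_25109 it was 0.07 (SE 0.22, 95% interval -0.42 to 0.57), on the TMM scale, although both dcl2-mu1 libraries were higher in CPM.

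The rule was also applied to 5 libraries at a time and the chosen loci were read in the sixth, which took no part in that choice. The other 5 lay within 3-fold by the choice, so only the sixth could break the range. High shares follow in part from that, and the share over all abundant loci was not computed. Of the loci chosen without dcl2T replicate 1, 98.4% of 1048 stayed within the 3-fold range once it was added. The share was 97.7% of 1058 for dcl2T replicate 2, 82.8% of 1218 for dcl2-mu1 replicate 1 and 95.8% of 1071 for dcl2-mu1 replicate 2. For the Dcl2 libraries it was 93.0% of 813 for replicate 1 and 96.0% of 599 for replicate 2. It was lowest for dcl2-mu1 replicate 1, in which 20 of the loci chosen from the others had no read at all.

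A narrow range alone gave nearly the same shares. Loci within 3-fold in the 5 libraries but with all mutant libraries on one side of Dcl2, a comparison chosen after the data were seen, stayed within the range at 98.3% of 291 for dcl2T replicate 1 and 97.9% of 282 for dcl2T replicate 2. The share was 80.3% of 376 for dcl2-mu1 replicate 1 and 93.6% of 311 for dcl2-mu1 replicate 2. It was 90.0% of 637 for Dcl2 replicate 1 and 96.0% of 776 for Dcl2 replicate 2.

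**Figure D5:**
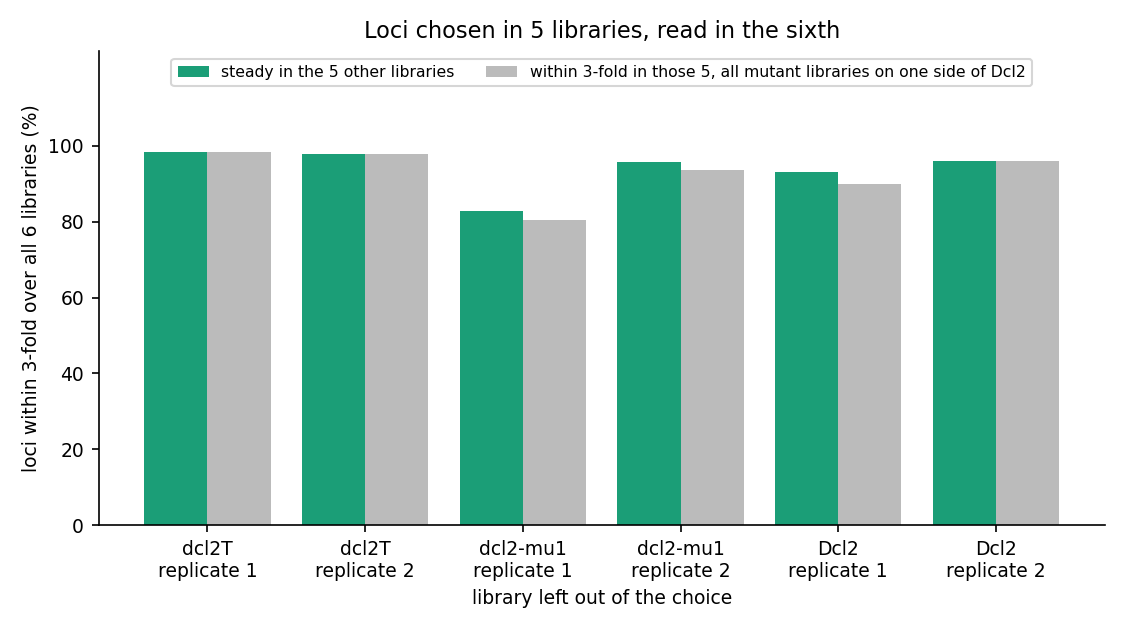
For each library left out in turn, bars give the percentage of loci that stayed within a 3-fold range once it was added, for loci steady in the other 5 libraries (green) and for loci within 3-fold in those 5 with all mutant libraries on one side of Dcl2 (grey). Green bars stand between 82.8% and 98.4% and grey bars between 80.3% and 98.3%, and both are lowest for dcl2-mu1 replicate 1.

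Choosing loci in one set of replicates and reading them in the other gave a similar picture for dcl2T and a weaker one for dcl2-mu1. The rule picked 445 loci from the 3 libraries numbered 1, and in the libraries numbered 2 dcl2T lay within 2-fold of Dcl2 at 92.1% of them, against 84.8% of all loci abundant in the first set. For dcl2-mu1 against Dcl2 the shares were 87.9% and 72.3%. In the opposite direction 579 loci were picked, and dcl2T lay within 2-fold of Dcl2 at 91.5%, against 83.4% of all. For dcl2-mu1 the shares read in replicate 1 were only 60.8% and 56.1%. The low values all involve dcl2-mu1 replicate 1, which had less than 1 in 2 of the reads of its partner, and the part of depth in them was not tested. The loci compared against include those of wide spread that the rule drops. A higher share among the chosen loci thus follows in part from the choice. Loci of narrow range that failed the order condition were not read in this way.

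Steady loci lay on all 10 chromosomes. Their number ran from 66 on chromosome 10 to 165 on chromosome 1, with 1 more on an unplaced scaffold. They were 38.6% of the abundant loci of chromosome 10 (66 of 171) and between 47.4% (chromosome 7, 74 of 156) and 57.1% (chromosome 8, 104 of 182) on the other chromosomes. In counts the order was another one, since chromosome 5 held 8.19% of all counts in its 149 steady loci and chromosome 7 only 0.993% in its 74. Along the chromosomes 31.1% of the steady loci lay in the outer 20% of the length, 10% at each end, against 32.8% of the other abundant loci and 25.1% of all loci in the table. In the middle 20% the shares were 15.0%, 15.5% and 17.1%.

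Some steady loci lay close together. Joined across gaps of up to 200 kb, the steady loci formed 818 groups, of which 640 were single loci and 178 had more than 1, holding 463 loci in all. At least 5 loci made up 13 of the groups, and the largest had 9. The nearest abundant neighbour of a steady locus was itself steady in 57.6% of cases, against 47.4% for loci of mixed order, 50.0% for loci with all mutant libraries above and 54.3% for loci with all mutant libraries below. Steady loci were 51.2% of all abundant loci. A locus within 10 kb of the next abundant one, as 24.8% of the steady loci were, need not be independent of it. That share was 28.5% for loci of mixed order, 29.7% with all mutant libraries above and 29.5% with all below. Closeness was therefore not particular to steady loci, and groups were not formed for the other loci.

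Among the 23 groups of at least 4 steady loci, the summed levels of both dcl2-mu1 libraries lay below both Dcl2 libraries in 6, above both in 6, and overlapped with them in 11. At single loci, both dcl2-mu1 libraries lay below both Dcl2 libraries at 21.0% of all 2157 abundant loci and above at 31.1%. Groups of other loci were not formed, so the group counts are a description and show no trait of steady loci. The groups described next were taken in order of their summed level, after their values were seen. The last one given, on chromosome 8, was not next in that order. It was added as an example of a group with dcl2-mu1 above. The highest sum was in 503 kb of chromosome 5 (chr5:161039945-161543347), with 6 steady loci of 7 abundant ones. It came to 31716 and 31635 CPM in dcl2T and 16908 and 24988 CPM in dcl2-mu1, against 35613 and 28079 CPM in Dcl2. The next, in 159 kb near the start of chromosome 4 (chr4:6067905-6227322), had 9 abundant loci, all steady, and summed to 18611 and 20174 CPM in dcl2T and 12753 and 15181 CPM in dcl2-mu1, against 20202 and 16121 CPM in Dcl2. In both groups the dcl2-mu1 libraries were the lowest of the 6, and dcl2T and Dcl2 overlapped.

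Another group on chromosome 4 (chr4:2967819-3182309), with 5 steady loci of 6 abundant ones, summed to 14997 and 15141 CPM in dcl2T and 8517 and 12086 CPM in dcl2-mu1, against 13431 and 10638 CPM in Dcl2. Here dcl2-mu1 and Dcl2 overlapped, and both dcl2T libraries lay above both. Of the pair of groups that came next, both on chromosome 1, the first (chr1:180468635-180574556) had 13494 and 14480 CPM in dcl2T and 6905 and 10747 CPM in dcl2-mu1, against 14962 and 11272 CPM in Dcl2. The second (chr1:181915897-182225805) had 12082 and 12705 CPM in dcl2T and 7508 and 7993 CPM in dcl2-mu1, against 11514 and 10005 CPM in Dcl2. In both, the dcl2-mu1 libraries were the lowest, while dcl2T overlapped with Dcl2 in the first and lay above it in the second. A group on chromosome 8 (chr8:174122075-174339750) of 7 steady loci went the other way, with 2129 and 2452 CPM in dcl2T and 3193 and 3238 CPM in dcl2-mu1, against 1973 and 3039 CPM in Dcl2.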

How the data were processed

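Small RNA was sequenced from pollen of dcl2T, dcl2-mu1 and Dcl2 plants (2 libraries each). Groups and replicate numbers came from the labels. The other 14 of the 20 samples were not analysed here. The authors trimmed adapters with cutadapt, took off random identifier bases, filtered structural RNA reads with bowtie2 and placed and grouped reads with ShortStack. The deposited values are raw counts per locus and library, with all read lengths together. The sources used here do not name the genome build of that step, and positions are those of the deposited table, with no annotation. Of 85421 loci, 12311 had no read.

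CPM was computed on column totals with Python 3.11.15, numpy 2.4.6 and pandas 2.3.3. The fold changes came from edgeR 4.0.16 in R 4.3.3 (filterByExpr, minimum count 10, minimum total 15; TMM, glmQLFit and glmQLFTest, 1 coefficient per genotype, Benjamini-Hochberg adjustment over 22558 loci). TMM factors ranged from 0.836 to 1.30. Approximate standard errors came from the fitted weights of each genotype and the moderated variance of the quasi-likelihood fit. DESeq2 1.42.0 was an alternative. The scripts were tested on simulated data that varied less than these libraries, which checks the code and not what the tests can find here. The study calls its replicates biological without naming the plants behind each library, and p-values measure only the spread between these libraries.

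Loci were named by a rule: the 10 steady loci with the largest mean CPM, the most abundant of each chromosome, the 3 with the smallest ratio, the longest and shortest, the 2 with the most CPM per kb, and the 2 on either side of each limit. This gave 24 steady loci. Members and lists were chosen with earlier results of these data known. Alternatives were other scalings, thinned counts, other limits, no order condition, no or another filter, a replicate block, a fit to the 2 genotypes of a comparison alone, and each library left out.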

Additional observations from a re-analysis of the deposited data

How the results depend on the processing

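The number of steady loci stayed within 1.5 times of 1104 under the other scalings (994 to 1052), under thinning to 1950081 counts (1079), at a ratio of 4 (1259), at a minimum of 10 CPM (1544) and with no condition on the order (1322). It was 624 at a ratio of 2 and 672 at a minimum of 50 CPM. A similar number was not the same set, since 863 of the 1048 loci chosen with TMM factors and 785 of the 994 chosen with RLE factors were among the 1104. Leaving out each library in turn gave 599 to 1218 loci. The lowest, 599, came without Dcl2 replicate 2, and 813 came without Dcl2 replicate 1. With 1 Dcl2 library left, the 4 mutant libraries more often lie all on one side of it, and the order condition removes more loci.

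The share of counts in steady loci, 48.4% in the mean, was 52.3% with TMM factors, 51.6% with upper-quartile factors, 36.7% at a ratio of 2, 51.2% at a ratio of 4, 47.0% at a minimum of 50 CPM and 71.5% with no condition on the order. Leaving out each library gave 27.1% to 47.9%, lowest without Dcl2 replicate 2. The median length of the steady loci ran between 2567 and 2857 bp over all settings, with 2567 to 2739 bp for libraries left out. The mean share of held-out libraries within 3-fold, 93.9%, was 92.9% with TMM factors and 96.9% at a minimum of 50 CPM.

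The count of steady loci called was 0 in each comparison under all alternatives run, with libraries left out from 0 to 0. Same-numbered libraries deviated together weakly or not at all across the abundant loci (r of 0.14, -0.08 and -0.04 for the 3 pairs of genotypes). The numbers were therefore not taken as pairs in the main fit, although a replicate block changed the calls over all loci. With the replicate block edgeR called 0 steady loci. At an unadjusted p under 0.05 it had 12, 102 and 121 steady loci, against 713, 2653 and 2253 of all 22558 loci. Its calls over all loci were 21, 205 and 145 with the block, against 6, 95 and 82 without the block. DESeq2 called 128, 692 and 439 over all loci. Each genotype has 2 libraries, and 1 read was worth 0.203 to 0.513 CPM.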

Other observations

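The 3-fold range also held loci that the order condition kept out of the steady set. All 4 mutant libraries lay below both Dcl2 libraries at 61 such loci, with a median ratio to Dcl2 of 0.740 in dcl2T and 0.657 in dcl2-mu1, and these loci held 2.82% to 5.13% of the counts of a library. All 4 lay above at 157 loci, with median ratios of 1.39 in dcl2T and 1.52 in dcl2-mu1, and these held 15.9% to 23.4%. The steady loci had median ratios of 1.02 in dcl2T and 1.05 in dcl2-mu1. Of the lower ones the most abundant, Cluster_47833 (chr5:157190641-157200867), had 8234 and 11752 CPM in dcl2T and 9625 and 10467 CPM in dcl2-mu1, against 16132 and 17561 CPM in Dcl2. On the higher side, Cluster_62573 (chr7:134137234-134144169) had 30387 and 28065 CPM in dcl2T and 31742 and 31079 CPM in dcl2-mu1, against 24599 and 23052 CPM in Dcl2. Its ratio of the highest to the lowest library was 1.38, which is smaller than that of most steady loci, so a narrow range and a fixed order of genotypes occurred together.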
